A study of Homo sapiens with 8 samples.

Results

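Regions accessible in cardiomyocytes (CM) and at no earlier stage of differentiation were identified from 8 ATAC-seq peak lists. The peaks of all lists on chromosomes 1 to 22 and X were merged into 285853 regions, and a region was kept when it held a peak in both CM lists and in none of the other 6. This gave 3000 CM-only regions, or 1.05% of all merged regions. Of the 42289 regions with a peak in both CM lists, 28115 held a peak in all 6 earlier lists, 8656 in 2 to 5 of them and 2518 in 1 of them.

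ATAC-seq marks open chromatin by letting the Tn5 transposase cut and tag DNA that is not covered by nucleosomes. The cells were RUES2, a human embryonic line in long use, with 2 replicate libraries at each of 4 stages of directed differentiation. Embryonic stem cells (ESC) were taken on day 0, after priming with the Wnt agonist CHIR-99021 and before the change to differentiation medium, mesoderm (MES) on day 2 after further CHIR-99021, cardiac progenitors (CP) on day 5 after the Wnt inhibitor Xav-939, and CM on day 14 in medium with B27. The stages are whole cultures without a sort for cardiomyocytes named in the sources used here, so that a change in the makeup of the culture and a change within cells cannot be told apart. The paper describes its CM as highly pure by flow cytometry for cardiac troponin T, and kept only samples above a set share of positive cells. Nothing in the labels says whether the replicates came from separate differentiations, and p-values then measure only the spread between these libraries.

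Enhancers are stretches of DNA, often far from genes, that become accessible when transcription factors bind them. In heart muscle the GATA, NKX2, MEF2, T-box and MEIS families and SRF are known to bind such elements, at the genes of the sarcomere among others. The sarcomere is built of thick myosin filaments and thin actin filaments, which are anchored at the Z-disc, and calcium released from the sarcoplasmic reticulum drives its contraction.

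To show what the CM-only regions look like in sequence, the strongest of them at each of a fixed group of cardiac genes is printed as the 200 bases of the plus strand of GRCh38 (hg38) around the CM replicate 1 summit, the point of highest read coverage. Capitals mark the GATA consensus (AGATAA, with T also allowed as the first letter and G as the last), the NKX consensus (TNAAGTG) and the MEF2 consensus on either strand. At TNNT2, MYL2 and NPPA no region was CM only, and at PLN and TBX5 the window reached into a UTR and is not printed.
TTN, chr2:178628714-178628913: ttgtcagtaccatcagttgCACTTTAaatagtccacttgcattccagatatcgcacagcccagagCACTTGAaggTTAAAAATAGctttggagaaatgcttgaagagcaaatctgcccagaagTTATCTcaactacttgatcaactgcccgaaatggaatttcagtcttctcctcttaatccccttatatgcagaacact
MYH7, chr14:23443484-23443683: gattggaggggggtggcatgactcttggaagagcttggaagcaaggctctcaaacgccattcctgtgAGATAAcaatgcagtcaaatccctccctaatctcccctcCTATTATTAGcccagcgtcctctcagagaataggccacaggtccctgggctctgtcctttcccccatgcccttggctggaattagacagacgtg
RYR2, chr1:237384357-237384556: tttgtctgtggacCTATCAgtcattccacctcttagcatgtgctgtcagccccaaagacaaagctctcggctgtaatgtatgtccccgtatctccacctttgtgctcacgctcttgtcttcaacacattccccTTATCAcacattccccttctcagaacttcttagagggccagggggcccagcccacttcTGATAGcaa
CACNA1C, chr12:2075915-2076114: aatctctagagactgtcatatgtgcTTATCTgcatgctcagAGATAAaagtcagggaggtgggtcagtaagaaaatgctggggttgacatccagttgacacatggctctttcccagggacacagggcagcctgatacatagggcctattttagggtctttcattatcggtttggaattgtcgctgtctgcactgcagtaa
NEBL, chr10:20964139-20964338: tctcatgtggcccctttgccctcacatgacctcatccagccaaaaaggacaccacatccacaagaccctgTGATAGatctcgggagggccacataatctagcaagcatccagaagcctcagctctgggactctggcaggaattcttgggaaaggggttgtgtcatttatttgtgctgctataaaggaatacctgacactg
MYH6, chr14:23378902-23379101: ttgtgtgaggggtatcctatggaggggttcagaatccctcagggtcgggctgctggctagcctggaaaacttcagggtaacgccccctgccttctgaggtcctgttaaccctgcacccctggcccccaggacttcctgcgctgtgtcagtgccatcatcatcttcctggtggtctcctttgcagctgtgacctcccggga
ACTN2, chr1:236699403-236699602: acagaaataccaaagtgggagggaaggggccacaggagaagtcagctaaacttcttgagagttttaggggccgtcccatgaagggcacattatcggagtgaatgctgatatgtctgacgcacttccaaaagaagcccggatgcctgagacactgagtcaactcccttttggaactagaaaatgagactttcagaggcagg

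The TTN window held 1 MEF2, 1 GATA and 2 NKX matches, and lies in an intron of the gene for titin, the giant elastic protein of the sarcomere. The MYH7 window, with 1 MEF2 and 1 GATA match, is intergenic and lies 7896 bp upstream of the gene for beta myosin heavy chain. In an intron of RYR2, which encodes the calcium release channel of the sarcoplasmic reticulum, the window held 3 GATA matches. CACNA1C, the pore subunit of the L-type calcium channel, had 2 and NEBL, a thin filament protein of the Z-disc, had 1, both in introns. The windows at MYH6 and ACTN2 held none of the 3 consensus sequences. The region counted for MYH6, alpha myosin heavy chain, lies beyond the 3′ end of the gene in an intron of its neighbour CMTM5.

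The deposited lists give 2 measures of strength for each peak, the fold of the read pileup at its summit over what is expected locally, and the q-value as −log10. The CM lists hold 92731 and 55777 peaks on these chromosomes and the earlier lists 99789 to 156179. The background of a library, in reads over a position, sets how weak a site it can list. It was 4.57 in CM replicate 1 and 2.54 in CM replicate 2, against 3.13 to 4.62 in the earlier libraries. CM replicate 2 had the lowest background and the shortest list of the 8. Without it, 18229 regions were listed for CM replicate 1 and no earlier library, and without CM replicate 1, 7800 were listed for CM replicate 2. Absence from an earlier list means that no peak was called there, and a call at the background of these 6 libraries needed a fold of at least 2.63 to 3.15. In 2782 CM-only regions (92.7%) both CM folds reached 3.15, and in 273 (9.10%) both reached 2 times that value.

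CP replicate 2 held most of the near misses. Among the regions with both CM peaks and a peak in exactly 1 earlier library, 1907 had it in CP replicate 2, against 134 in CP replicate 1, 188 and 212 in replicate 2 of ESC and MES, and 29 and 48 in replicate 1 of these stages. In those 1907 regions the median fold was 5.25 in CP replicate 2, 4.83 in CM replicate 1 and 5.17 in CM replicate 2. Without CP replicate 2, the same rule gave 4933 regions. Leaving out any other earlier library gave 3031 to 3225. Whether a region was called CM only thus rested on CP replicate 2 more than on any other earlier library.

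As a check of the labels, the promoters of 8 cardiomyocyte genes (TNNT2, MYH6, MYH7, MYL7, ACTN2, TTN, NKX2-5 and RYR2) were searched for a peak within 1 kb of a transcription start site (TSS). Both CM libraries listed 7 of the 8, CP replicates 1 and 2 listed 6 and 7, and the ESC libraries 5 each. MYH6 was listed in CP replicate 2 with a fold of 4.18 and in CM replicates 1 and 2 with folds of 4.28 and 5.19, and in no ESC or MES library or CP replicate 1. Of 8 pluripotency genes, all were listed in ESC and MES, 7 in each CP library and 6 in each CM library. SOX2, one of them, had folds of 4.42 and 4.90 in ESC and 6.01 and 6.19 in CM. NANOG, another, was listed with folds of 5.73 and 5.83 in ESC and 4.58 and 4.68 in MES and not in CP or CM. Of the promoters of other cell types, 6 of 6 smooth muscle genes were listed in each of the 8 libraries, 6 of 10 fibroblast and epicardial genes in each CM library and 6 to 8 earlier, and 2 of 8 endothelial genes in each CM library and 4 to 7 earlier. Blood, skeletal muscle, endoderm and neural promoters were listed for 4 of 6, 4 of 10, 6 of 7 and 6 of 7 genes in CM replicate 1 and for 2, 2, 2 and 6 in CM replicate 2. The part of other cell types in the CM-only regions was not tested.

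The CM-only regions were of moderate strength. In CM replicate 1 their fold ran from 2.22 to 13.8 with a median of 4.57, and in CM replicate 2 from 2.59 to 13.7 with a median of 5.09. Regions listed in all 8 libraries had medians of 5.90 and 6.22, and regions listed in a single CM library had medians of 3.50 and 4.24. The CM-only regions lay between these sets in both libraries. So did the regions listed in both CP and both CM libraries only, with medians of 5.21 and 5.77. Stronger sites are more readily listed, so this order follows in part from how the sets were chosen. The pileup at their summits had a median of 30.0 reads in CM replicate 1 and 21.0 in CM replicate 2. The median −log10 q was 10.3, with a maximum of 70.1, in CM replicate 1 and 8.13, with a maximum of 46.4, in CM replicate 2. In 2382 regions (79.4%) it was at least 5 in both.

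**Figure D1:**
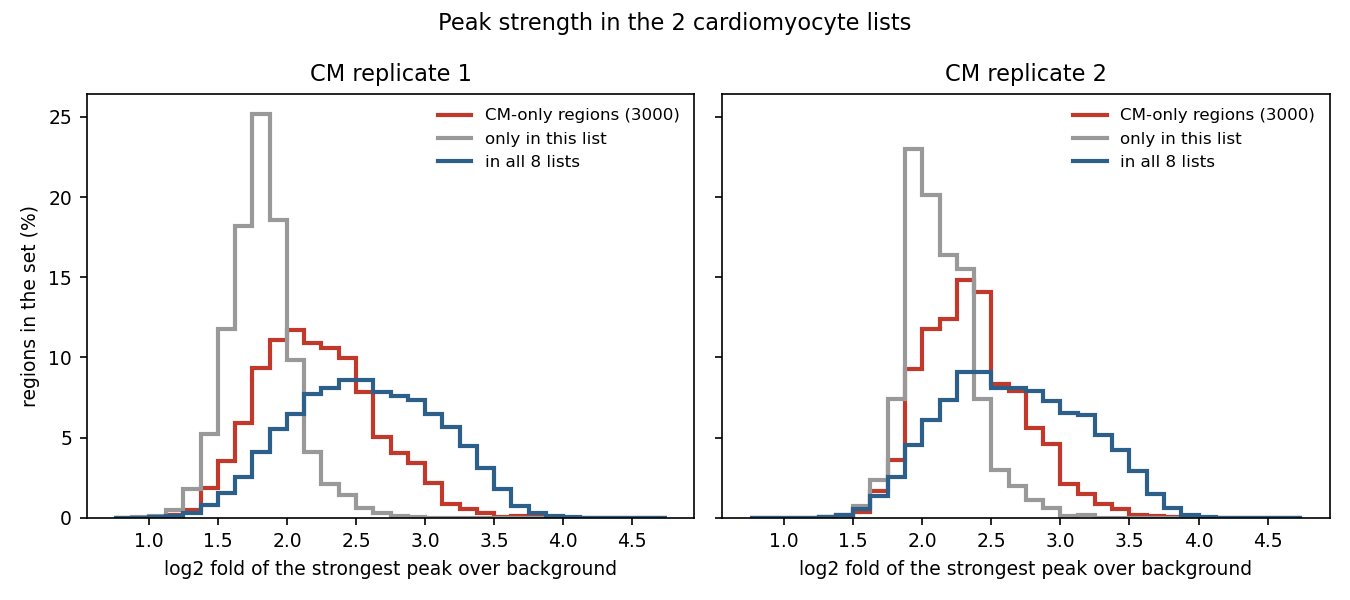
Distribution of the log2 fold of the strongest peak in a region (x axis) as the percent of regions in each set (y axis), for CM replicate 1 and CM replicate 2. The 3000 CM-only regions (red) lie between regions found in that list alone (grey) and regions found in all 8 lists (blue), with median folds of 4.57 and 5.09.

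The 2 replicates ordered the CM-only regions alike only in part. Across the 3000 regions, Pearson's r of the log2 folds was 0.607 and Spearman's rho 0.570. They were 0.705 and 0.676 across the 1280 regions of both CP and both CM libraries only, and 0.864 and 0.855 across the 28115 regions of all 8 lists. Regions are not independent replicates, and these values are given as a description. The fold was higher in CM replicate 2 in 2005 regions (66.8%), with a median log2 difference of 0.15 (SD 0.35 over regions), and a like share, 67.1%, was higher there among regions of all 8 lists. At the edge of the rule, the 5 weakest CM-only regions had a lower −log10 q of 2.62 to 2.71. The weakest lies in an intron of CACNA1E, a calcium channel gene, with folds of 3.43 and 3.31 and pileups of 21 and 11 reads.

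CM-only regions were mostly far from promoters. Only 96 of them (3.20%, 95% Wilson interval 2.63 to 3.89%) lay within 1 kb of a TSS of a protein-coding gene, against 8.27% of all merged regions and 49.1% of regions in all 8 lists. Regions chosen in the same way for other stages had 2.37% for ESC, 2.13% for MES, 2.88% for CP and 1.88% for CP and CM. The median distance to such a TSS was 50904 bp in CM-only regions, 45062 bp over all regions and 54833 to 65546 bp in those other sets. More than 100 kb away were 33.3% of CM-only and 32.8% of all regions. With the TSSs of all annotated genes, which include non-coding transcripts and pseudogenes, 269 (8.97%) lay within 1 kb, against 42760 of the 285853 merged regions. Introns of protein-coding genes held 1517 (50.6%) of the CM-only regions, compared with 39.5% of all merged regions and 40.4, 40.8 and 41.8% of the regions defined in the same way for ESC, MES and CP. The share was 47.7% for CP and CM regions and 47.2% for those of CM replicate 2 alone. A further 870 (29.0%) were intergenic, 426 (14.2%) lay in other genes, 46 (1.53%) in coding exons and 45 (1.50%) in UTRs, against 33.9, 15.2, 1.85 and 1.30% of all regions. Their median width was 360 bp and the median GC content around the summit was 47.5%, against 52.5% over all regions.

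Earlier accessibility nearby was about as common as elsewhere. A peak of CP replicate 1 lay within 10 kb of 50.4% of the CM-only regions, and within 10 kb of 51.6% of all regions that had no peak of their own in that library. For the other earlier libraries the shares were 49.3 to 67.2% of the CM-only regions and 52.8 to 69.2% of such regions, and the ratio of the shares was 0.932 to 0.995 over the 6 libraries.

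Which letters of the genome the CM-only regions share was searched for 12 short consensus sequences, on both strands, in the 200 bp around the summit of the strongest peak. These were GATA, NKX and MEF2 as above, MEIS (TGACAG), TEAD (GGAATG), TBX (AGGTGT), AP-1 (TGANTCA), KLF/SP (GGGCGG), OCT (ATTTGCAT), ESRR (TCAAGGTCA), SRF and CTCF. A match is a description of the sequence and not evidence that a factor was bound. Matches of different consensus sequences may overlap, as MEF2 and SRF may, both being rich in A and T.

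MEF2 had the largest ratio of the 12 between the CM-only regions and all merged regions. The MEF2 consensus was present in 318 of the 3000 (10.6%, 95% Wilson interval 9.55 to 11.8%), against 0.969% of all merged regions. It was found in 1.33% of the 1280 regions listed in both CP and both CM libraries only, 0.192% of the 2083 CP-only, 0.899% of the 7901 MES-only and 1.08% of the 8597 ESC-only regions. Regions listed in CM replicate 1 alone had it in 2.36%. Since the consensus is rich in A and T, regions were also split by GC content. From 40 to 50% GC it was present in 11.7% of CM-only and 1.66% of all regions, and at 50% GC or more in 8.16% and 0.443%. The share with MEF2 was 8.09% when the rule was applied without CP replicate 2, 6.33% without CM replicate 1 and 3.70% without CM replicate 2. The 1907 regions shared with CP replicate 2 alone had it in 3.88%.

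GATA, MEIS and NKX letters were common in the CM-only regions but not particular to them. GATA was present in 1501 of the 3000 (95% Wilson interval 48.2 to 51.8%), against 27.2% of all regions, 48.4% of MES-only, 43.5% of CP-only and 58.7% of CP and CM regions. MEIS was present in 30.8%, against 16.8% of all regions and 40.3% of CP and CM regions. NKX was present in 23.2%, against 10.3% of all regions, 16.2% of CP and CM regions and 9.70% of CP-only regions. Applied without CM replicate 2, the rule gave regions with GATA in 29.9%. At least 1 of GATA, NKX, MEF2 and MEIS was found in 2338 CM-only regions (77.9%), at least 3 in 160 (5.33%) and all 4 in 2, against 45.3% and 0.750% of all regions for the first counts.

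The other consensus sequences differed less or were scarcer. TEAD was found in 19.5% of the CM-only regions and 14.6% of all regions, AP-1 in 12.6% and 8.08%, SRF in 2.00% and 1.03%, and ESRR in 1.03% and 0.318%. Below the level of all regions were TBX with 9.87% against 13.2%, KLF/SP with 3.37% against 11.9%, OCT with 21 of the 3000 regions against 1.65% and CTCF with 0.100% against 2.03%. TBX letters were found in 24.8% of MES-only regions.

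**Figure D2:**
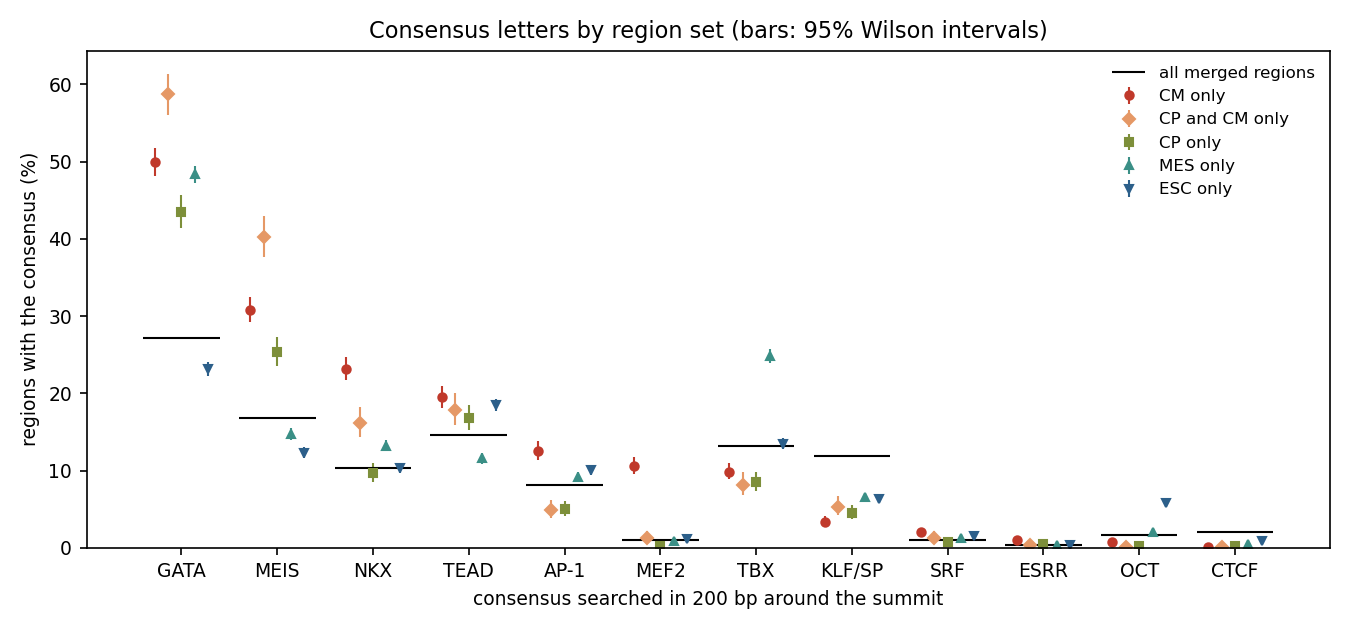
Percent of regions (y axis) with each of 12 consensus sequences (x axis) in 200 bp around the summit, for regions of 1 stage and for regions of CP and CM, with bars for 95% Wilson intervals and black lines for all 285853 merged regions. MEF2 was present in 10.6% of the CM-only regions and in at most 1.33% of the other sets shown.

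In the CM-only regions the matches were denser at the summits than beside them. MEF2 was centred within 50 bp of the summit in 3.58% of the CM-only regions per 50 bp, against 1.60% per 50 bp at 300 to 500 bp from it, a ratio of 2.24. In the regions of the other stages the same ratio was 0.134 for ESC, 0.130 for MES and 0 for CP, and 0.423 for CP and CM, so that MEF2 letters were sparser at their summits than beside them. For NKX the ratio was 2.06 in CM-only and 1.41 in CP and CM regions, and 0.702, 1.02 and 0.733 in CP, MES and ESC regions. For GATA it was 1.67 in CM-only regions, 2.23 in CP and CM, 1.59 in CP, 1.71 in MES and 0.562 in ESC regions. MEIS, AP-1 and TEAD had ratios of 2.79, 2.21 and 1.96 in CM-only regions, so that a dense centre was not particular to MEF2. In CP and CM regions their ratios were 3.69, 0.714 and 1.71, and in ESC regions 1.04, 1.96 and 2.02.

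MEF2 and GATA letters did not go together in the CM-only regions. GATA was found in 45.3% of those with MEF2 and in 50.6% of those without, and MEIS in 70 of the 318 with MEF2 and in 31.8% of the rest. Over all merged regions, GATA was found in 35.3% of those with MEF2 and in 27.1% of those without. For MEIS these shares were 17.3% and 16.8%. The strongest regions held more MEF2, GATA and NKX letters than the weakest. In 4 groups of 750 from the strongest to the weakest, ranked by the lower of the 2 CM −log10 q values, MEF2 was found in 14.1, 10.5, 10.5 and 7.20%, GATA in 53.9, 53.7, 50.3 and 42.3%, and NKX in 27.1, 24.4, 22.5 and 18.7%. MEIS was found in 32.9, 34.5, 30.3 and 25.5%, with the most in the second group. The 318 regions with MEF2 had median folds of 4.95 and 5.26, and the 2682 without it 4.50 and 5.08.

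Whether the CM libraries differed in these letters beyond the CM-only regions was tested over libraries, on the peaks of each library that lie outside those regions. MEF2 was present in 1.35% and 1.50% of these peaks in CM replicates 1 and 2, against 0.487 and 0.606% at the CP stage, 0.608 and 0.680% at the MES stage and 0.726 and 0.640% at the ESC stage. Both CM libraries lay above all 6 others, a difference of 0.800 percentage points (exact permutation test of 2 against 6 libraries, two-sided, p = 0.0714, the smallest that the 28 assignments can give, and adjusted p = 0.214 over 12 motifs). No result of this design can pass 0.05. The test treats the 8 libraries as exchangeable, although they come as 2 replicates of each of 4 stages. The same p was reached by KLF/SP (a difference of 6.70 percentage points), OCT (−0.823) and ESRR (0.0643). Within peaks of 40 to 50% GC, chosen after seeing the data, the shares were 3.11 and 2.91% in CM and 1.08 to 1.41% in the others. GATA was present in 22.8 and 24.1% of such peaks in CM and in 18.4 to 27.8% of the others, and the groups overlapped (exact permutation p = 0.857, adjusted p = 1.00).

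Genes were given every CM-only region in the gene body or within 10 kb of it. Of 19970 protein-coding genes, 1670 (8.36%) had at least 1, 323 at least 2 and 66 (0.330%) at least 3, and 1869 of the 3000 regions were placed in this way. Long genes have more room, and the median length was 134 kb for genes with a CM-only region and 27.5 kb for all. The number of merged regions at a gene is therefore given beside each count. Over all protein-coding genes, 1.13% of the regions were CM only.

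PTPRM, a receptor tyrosine phosphatase of cell contacts, had the most, with 7 of its 118 regions. AUTS2 had 6 of 148 and MACROD2 6 of 174, both genes of over 1 Mb. CSMD1 had 5 of 221. STXBP6, which encodes a SNARE binding protein, had 5 of 36 (13.9%) in a gene of 240.7 kb. With 4 each followed TLN2, a talin that links integrins to actin (4 of 75), PRDM16, a transcriptional regulator mutated in cardiomyopathy (4 of 50), CDIN1 (4 of 19, 21.1%), TTN (4 of 29, 13.8%), PLXNA4 (4 of 101), DPP10 (4 of 97), RBFOX1 (4 of 184), GPC6 (4 of 129), FRMD4B (4 of 48), ADGRL2 (4 of 75), HPSE2 (4 of 68), AOPEP (4 of 70), SPON1 (4 of 47) and NRXN3 (4 of 181). At CDIN1, STXBP6 and TTN more than 1 in 10 regions were CM only, whereas RBFOX1, NRXN3 and CSMD1 had about 2 in 100. Applied without CM replicate 2, the rule gave 15 regions at PTPRM, 18 at AUTS2, 8 at STXBP6 and 8 at TTN. The count over the whole genome rose by a larger factor in that setting, from 3000 to 18229. Without CM replicate 1 the rule gave 13 at PTPRM, of 7800 in all. Without CP replicate 2 it gave 11 at AUTS2, of 4933 in all.

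Genes of heart muscle had CM-only regions more often than protein-coding genes at large. Of 125 genes in 9 heart muscle lists, 40 (32.0%) had at least 1, and 64 of their 2508 regions (2.55%, 95% Wilson interval 2.00 to 3.25%) were CM only. Of 62 genes in 8 lists of other cell types, 4 (6.45%) had one, and 5 of 644 regions (0.776%, 0.332 to 1.80%) were CM only. The median gene length was 50.8 kb in the heart muscle lists and 22.9 kb in the others. Regions of 1 gene are not independent, and the intervals cover counting error only.

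**Figure D3:**
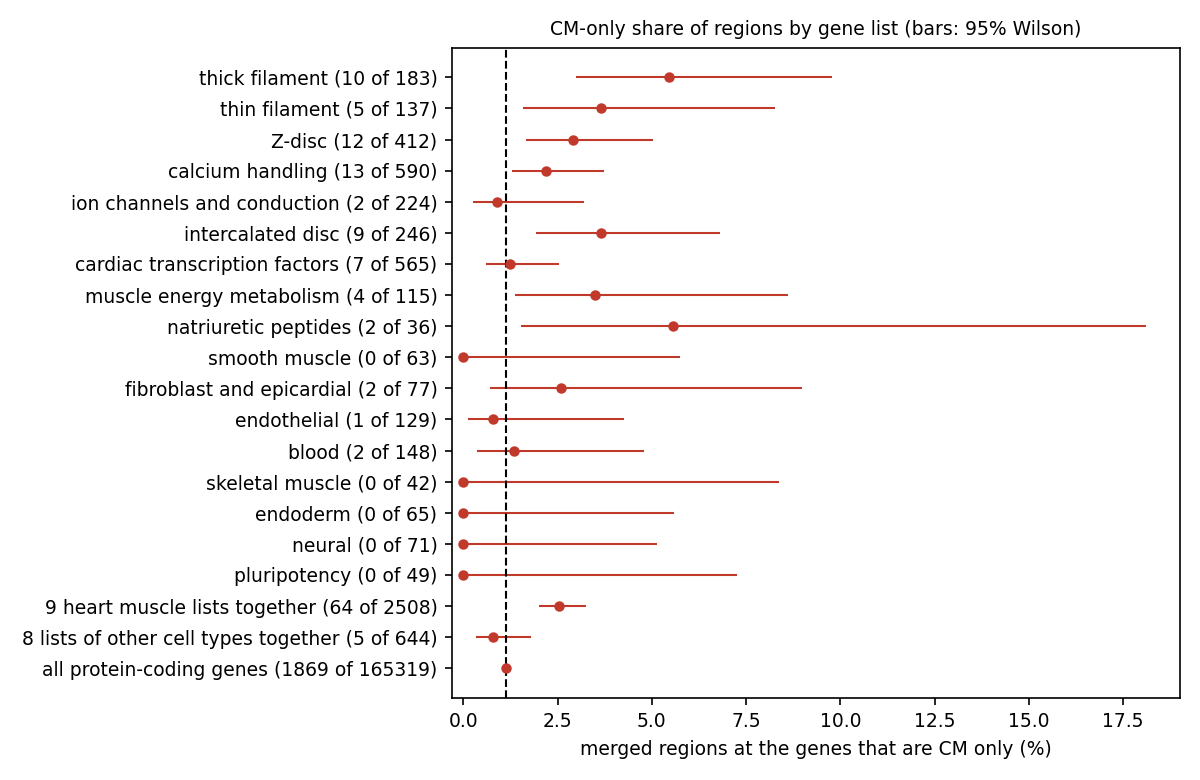
Percent of the merged regions at the genes of each list that were CM only (x axis), with 95% Wilson intervals and, beside each list, the number of CM-only regions of the number of regions. The dashed line is the 1.13% of all protein-coding genes; the thick filament list had 5.46% and the cardiac transcription factors 1.24%.

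Among thick filament genes, 6 of 14 had a CM-only region, and 10 of 183 regions (5.46%) were CM only. TTN had 4, MYL3, the ventricular and slow muscle essential myosin light chain, 2, and MYH6, MYH7, MYH7B and MYOM1, an M-band protein that holds myosin filaments together, 1 each. MYL3 had a region 128 bp from a TSS with folds of 3.43 and 4.28 and one 1721 bp from a TSS with 2.95 and 3.06. At MYOM1 the region lay 5 bp from a TSS, with folds of 5.56 and 4.66. MYL2, MYL4, MYL7 and MYBPC3 had none.

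TTN was covered in more detail because its 4 regions fall along the gene. In an intron 201981 bp from the gene start, chr2:178628646-178628996 had folds of 6.09 and 5.68, the highest of the 4, and is the one printed above. A neighbour 200029 bp from the start, chr2:178630634-178630911, had 3.18 and 4.17. Between this pair lay a region that was listed in both CM libraries with folds of 7.61 and 5.71 and, with 4.37, in ESC replicate 2, and that was therefore not CM only. A region 24041 bp from the gene start, chr2:178806638-178806884, lay 662 bp from the nearest protein-coding TSS and had 4.19 and 4.44. One 65005 bp from the start, chr2:178765595-178765999, had 3.39 and 4.36. The gene start is the outermost annotated end of the gene and need not be the start of its main transcript. TTN has several TSSs, and their peaks were not listed in the same libraries. A promoter peak that starts 22.92 kb from the gene start in CM replicate 1 had folds of 8.25 and 8.54 in CM and 7.20 and 11.5 at the CP stage. It was listed with 3.58 in ESC replicate 2 and not in ESC replicate 1 or MES. Another, which starts 25.57 kb from the gene start in ESC replicate 1, had 9.43 and 10.3 in ESC, 8.05 and 9.03 at the MES stage, 5.56 in CP replicate 1 and 3.13 in CM replicate 1, and was not listed in CP replicate 2 or CM replicate 2. A peak at the gene start had 3.74 in ESC replicate 2, 7.55 and 7.69 at the MES stage and 7.26 and 8.63 at the CP stage, and was not listed in ESC replicate 1 or CM. None of these 3 peaks is CM only.

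**Figure D4:**
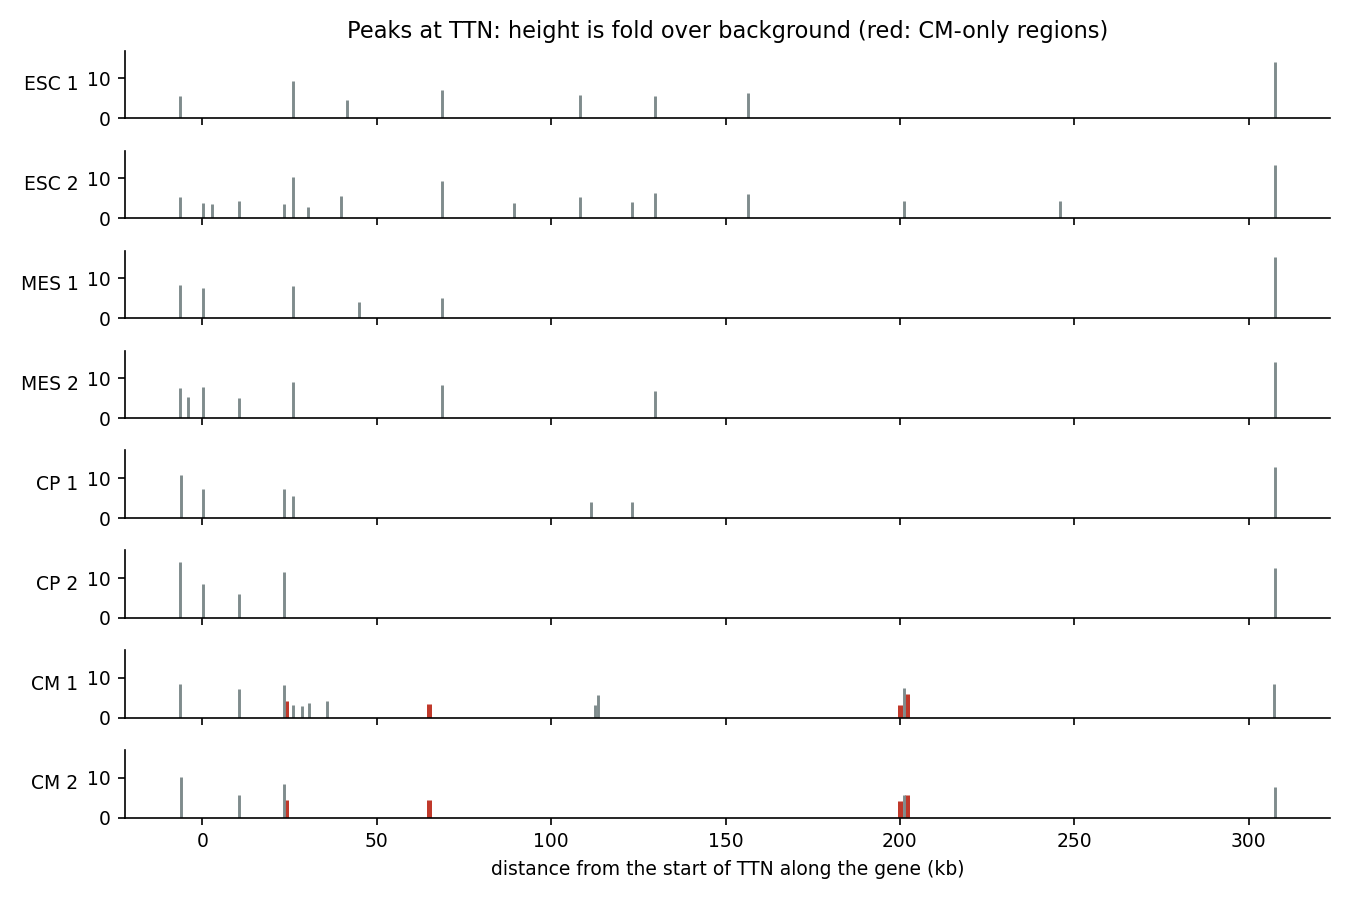
Peaks at TTN in the 8 libraries, by distance from the gene start along the gene in kb (x axis), with the height giving the fold over background (y axis of each row). Red lines are the 4 CM-only regions, which have a peak in both CM rows and in none of the other 6.

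Thin filament genes had a CM-only region in 4 of 11, with 5 of 137 regions (3.65%). ACTC1, cardiac actin, had 2 of its 4 regions, with folds of 4.39 and 3.90 downstream of the gene and 2.63 and 3.15 at 1447 bp upstream. TNNC1, cardiac troponin C, had a region 231 bp from a TSS with folds of 2.93 and 3.38. TMOD1, which caps thin filaments, and NEBL had 1 each. TNNT2, cardiac troponin T, had none, and a peak within 1 kb of one of its TSSs was listed in each of the 8 libraries, the strongest with folds of 4.34 and 4.12 in ESC and 3.96 and 5.65 in CM.

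At the Z-disc, 7 of 21 genes had one and 12 of 412 regions (2.91%) were CM only. PALLD, an actin bundling protein, had 4 of 76, with folds of 3.71 to 5.38 in CM replicate 1 and 3.61 to 4.52 in CM replicate 2. ACTN2, the alpha-actinin that anchors thin filaments, had 2, with folds of 3.97 and 4.63 at the one and 4.49 and 4.17 at the other. FHOD3, a formin that builds actin filaments, had 2 of 91. At CSRP3, which encodes the muscle LIM protein, a region 6 bp from a TSS had folds of 6.86 and 7.89. SYNPO2L, MYPN and PDLIM5 had 1 each.

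Calcium handling genes had one in 8 of 15, and 13 of 590 regions (2.20%). These genes are long, with a median of 344 kb. CACNB2, the beta subunit of the L-type channel, had 3, the strongest with folds of 7.04 and 6.49 and a MEF2 match. RYR2 had 2, with folds of 6.82 and 7.95 and of 4.79 and 4.37, and CACNA1D and SLC8A1, the sodium-calcium exchanger, 2 each. CACNA1C had 1 with 5.10 and 6.51, and ASPH and CAMK2D had 1 each. At PLN, phospholamban, which restrains the calcium pump, the region lay 27 bp from a TSS with folds of 6.82 and 5.65. ATP2A2, the pump itself, CASQ2, TRDN and JPH2 had none.

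Of the intercalated disc, which joins cardiomyocytes end to end, 6 of 10 genes had a CM-only region, with 9 of 246 regions (3.66%). CDH2, N-cadherin, had 3, with −log10 q of 24.4 and 15.7 at the strongest. CTNNA3, alpha-T-catenin, had 2, PKP2, plakophilin, 1 with folds of 6.72 and 6.58, and TJP1, DSC2 and VCL 1 each. Energy metabolism had 2 of 16 genes and 4 of 115 regions (3.48%), which were 2 at PPARGC1A, a coactivator of mitochondrial genes, and 2 at MB, myoglobin. The PPARGC1A regions had folds of 6.28 and 6.15, with a GATA and a MEF2 match, and of 6.70 and 5.56. The MB regions had 3.61 and 4.70, and 3.19 and 4.18. Of the natriuretic peptide list only CORIN, the protease that activates atrial natriuretic peptide, had CM-only regions, 2 of the list's 36 (5.56%).

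By the share of their regions, cardiac transcription factors and ion channels lay near the 1.13% of all protein-coding genes. Of 23 transcription factor genes 5 (21.7%) had a CM-only region, against 8.36% of all protein-coding genes, and 7 of 565 regions (1.24%) were CM only. The median gene length was 51.7 kb in this list and 27.5 kb over all. MEIS2 and ZFPM2, a GATA cofactor, had 2 each, and MEIS1, ESRRG and TBX5 1 each. The region at TBX5, 61 bp from a TSS, had folds of 2.68 and 3.34. GATA4, GATA6, NKX2-5, HAND1, HAND2, TBX20, MEF2A, MEF2C and MYOCD had none, and NKX2-5 had a promoter peak in all 8 libraries, with folds of 3.03 to 4.11 in the earlier ones and of 3.96 and 4.57 in CM. Of the regions at 12 ion channel and conduction genes, 2 of 224 (0.893%) were CM only.

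Outside the heart muscle lists, RUNX1, a blood factor, had 2 regions, with folds of 5.74 and 6.22 and of 4.79 and 9.09. TCF21 and TBX18, of the epicardium, had 1 each, with folds of 3.94 and 3.10 and of 3.02 and 4.52, and TEK, of endothelium, had 1 with 4.88 and 4.17. No region at the smooth muscle, skeletal muscle, endoderm, neural or pluripotency genes was CM only, of 63, 42, 65, 71 and 49 regions. With so few regions, shares of up to 5.13 to 8.38% are within the 95% intervals of these zeros.

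At promoters, the 96 CM-only regions within 1 kb of a TSS belong to 94 genes (0.479% of 19626 protein-coding genes with an annotated protein-coding transcript). Earlier peaks were counted for a gene where the nearest protein-coding TSS of their merged region was its own and lay within 1 kb. A peak near a TSS of the gene but nearer to a neighbour's TSS was therefore not counted. By this count, 53 of these genes had some other promoter peak in all 6 earlier libraries, and 20 had none in any. GNAS, the stimulatory G protein alpha subunit, was strongest, with folds of 7.85 and 9.86 10 bp from a TSS of a gene with other promoter peaks in all 6 earlier libraries. OVCH2 followed, with 8.12 and 9.11 and no earlier peak by this count. At AKAP6, which anchors protein kinase A at the nuclear envelope and sarcoplasmic reticulum of muscle, the folds were 7.83 and 8.74. The others among the 20 strongest were TMEM67, CSRP3, BZW2, BCAR3, BBOX1, CA1, LCA5L, MYL3, MYBPC1, FSD2, CAST, SLC5A1, AQP1, EPSTI1, CCDC39, MYH15 and ZEB2. Their folds were 3.43 to 8.50 in CM replicate 1 and 4.28 to 10.7 in CM replicate 2. BZW2 (8.14 and 7.65) and GNAS held MEF2 matches.

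Of the 20 genes with no earlier promoter peak by this count, 3 are in the heart muscle lists, PLN, MYOM1 and SYNPO2L. The others are OVCH2, FSD2, AQP1, MOG, C4orf51, KATNIP, KLHL38, ASB2, LAMB4, GSTT4, TECRL, HBD, A2M, CLDN15, IGFL2, A3GALT2 and OR52B2, and the values that follow were picked out after they were seen. TECRL, mutated in inherited arrhythmia, had folds of 4.31 and 4.64 at 31 bp from a TSS. At ASB2, a muscle ubiquitin ligase subunit, a pair of regions had folds of 3.40 and 3.56 and of 2.98 and 3.06. HBD, a globin gene, had 3.77 and 7.07. A further 64 CM-only regions (2.13%) lay within 1 kb of a lncRNA TSS and of no protein-coding TSS, against 3.01% of all regions.

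The strongest CM-only regions lay 8228 to 474051 bp from the nearest protein-coding TSS, and none lay at a gene of the sarcomere lists. Of all 3000 CM-only regions, the thick filament, thin filament and Z-disc lists held only 10, 5 and 12. Their absence among the few strongest regions therefore shows nothing particular about these. Ranked by the lower of the 2 CM −log10 q values, the first, chr18:59742438-59743097, is intergenic, 45106 bp from the nearest protein-coding TSS, that of CCBE1, a secreted factor of lymphatic growth. Its folds were 12.1 and 11.7, with pileups of 97 and 64 reads. The second, chr13:77196010-77196601 in an intron of the ubiquitin ligase gene MYCBP2, had folds of 13.8 and 13.7. In introns of PREP, a peptidase, SUCLG2, a subunit of a citric acid cycle enzyme, and TLN2, the third to the fifth had 7.42 and 10.4, 8.75 and 11.1, and 8.16 and 10.0. The region in TLN2, chr15:62816154-62816876, lies 7442 bp from the TSS of the microRNA gene MIR190A.

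Of the next 10, 4 lie in introns of TANC1, TMEM163 and DNAJC11 or in the gene ATP6AP1L, and the others lie between genes or in non-coding genes, where the nearest protein-coding TSSs are those of KCNA4, EYS, MGAT5, MKI67, HNF4G and FAM110B at 120160 to 474051 bp. Their folds were 7.34 to 13.7 in CM replicate 1 and 8.91 to 12.7 in CM replicate 2. In both libraries these 15 regions had folds above the third quartile of the CM-only regions, 5.60 and 6.04. The q-value that ranks them rests on the same pileup and background as the fold, so this follows largely from the ranking. GATA was present in 9 of the 15, and MEF2 in 0, against 1501 and 318 of all 3000 CM-only regions. With so few regions, these counts cannot show a difference from the whole set. With the TSSs of all annotated transcripts, pseudogenes included, a nearer TSS lies at each of the 15 regions except the one at HNF4G, among them one of TANC1 at 408 bp. The nearest protein-coding TSS is given for position, and its gene is not thereby the target.

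CM-only regions were scattered. Joined across gaps of up to 20 kb, 2735 of the 3000 (91.2%) stood alone, 128 pairs formed and 3 groups of 3 formed. The median gap between neighbours on a chromosome was 572932 bp. A CM-only region was followed by another as the next merged region in 67 of 2999 cases (2.23%), 2.13 times their share of all regions. The same ratio was 1.26 for ESC-only, 1.78 for MES-only, 1.12 for CP-only and 2.97 for CP and CM regions. With CP replicate 2, CM replicate 1 or CM replicate 2 left out, the share followed by another was 3.45, 4.09 and 7.96%, while the number of regions itself rose to 4933, 7800 and 18229.

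Groups of 3 lie at AQP1 and at DIXDC1, among others. At AQP1, a water channel gene, chr7:30911620-30930984 spans 19.4 kb and holds 3 CM-only regions among 6 merged regions, and 2 of them lie 83 and 77 bp from TSSs. At DIXDC1, beside the pyruvate dehydrogenase subunit gene DLAT, chr11:111992460-112017855 spans 25.4 kb with 3 of 6. Among the pairs, the strongest lay at PREP, RXRG, RABGAP1L, AMOTL1, LAMA4, CDIN1 and IRS1, over 2.2 to 18.3 kb. RXRG is a retinoid receptor, LAMA4 a laminin chain and IRS1 an insulin receptor substrate.

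By chromosome, the share of regions that were CM only was 0.614% on chromosome 19 (95% Wilson interval 0.449 to 0.838%) and 0.711% on X (0.563 to 0.897%), and 0.945 to 1.34% on the others. Near muscle microRNAs, a CM-only region in an intron of MIB1, chr18:21826970-21827222, lies between MIR133A1 and MIR1-2, 1354 and 1951 bp from their hairpins, with folds of 3.52 and 3.98. It was picked out after its values were seen. The region beyond the 3′ end of MYH6 lies 9709 bp from the hairpin of MIR208A.

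Promoters open throughout were compared between genes with many CM-only regions and other genes. At 85 promoter regions listed in all 8 libraries, belonging to 55 genes with at least 3 CM-only regions, the median log2 fold was compared with that of the 13721 other such promoter regions. The difference was −0.16 and −0.28 in CM. At the CP stage it was −0.21 and −0.19, at the MES stage −0.23 and −0.18 and at the ESC stage −0.18 and −0.18. CM minus the earlier libraries was −0.03, smaller than the SD of the 2 CM libraries of 0.09 (exact permutation test, two-sided, p = 0.500, with 0.0714 the smallest possible). A p of this size does not show that the promoters were alike.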

How the data were processed

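ATAC-seq was measured in 8 libraries of RUES2 cells. The authors mapped reads to hg38 with BWA-MEM (BWA 0.7.13 per the labels), kept primary alignments with a MAPQ above 30 after discarding duplicates (Picard), and ran MACS2 2.1.0 on each library (q-value of 0.01, reads shifted by 100 bp and extended to 200 bp). The submitters' notes also name bedtools 2.26.0, with no role. The deposited lists give for each peak a ratio, the fold of the pileup over the expected background. They also hold the deposited −log10 p-values and q-values. No reads were used.

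Peaks on chromosomes 1 to 22 and X were merged with bedtools 2.31.1. Where a region held several peaks of a library, the strongest was used. The pileup and background of each peak were computed from its fold and −log10 p, and came out within 0.05 of a whole number of reads for 100% of peaks. Sequence and genes were taken from GRCh38 and GENCODE 44, the build the authors named. A consensus was searched in 200 bp around summits. Libraries were compared by exact permutation tests (scipy 1.17.1), two-sided, with Benjamini-Hochberg adjustment over the 12 motifs. The scripts, in Python 3.11.15 with numpy 2.4.6, pandas 2.3.3 and matplotlib 3.10.9, were tested on simulated data. Wilson intervals cover counting error only, and the background reads per position stand for depth.

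Named were, by fixed rules, up to 4 genes per list with the most CM-only regions, the 20 genes with the most, the 15 strongest regions, the 10 largest groups, the 20 genes with the strongest promoter regions and, for sequences, 12 cardiac genes. Further list genes are named to complete a list's count. Some items that these rules select are not reported here. The regions, lists and rules were chosen with earlier results of these data known. Alternatives were a −log10 q of at least 5, equal list lengths, merging across 500 bp, no merging, chromosomes 1 to 22, other windows and gene limits, and each library left out.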

Additional observations from a re-analysis of the deposited data

How the results depend on the processing

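The number of CM-only regions, 3000, was 4771 with lists of equal length, as long as the shortest, and 2382 to 3064 with stricter −log10 q, merging across 500 bp, no merging or chromosomes 1 to 22. Leaving a library out drops a condition of the rule, so the count cannot fall. With each library left out it was 3031 to 18229. It was above 1.5 times the main count without CP replicate 2 (4933), CM replicate 1 (7800) or CM replicate 2 (18229). Why these libraries weighed more than the others was not tested. The difference in MEF2 outside these regions was positive in every setting, 0.512 to 0.818 percentage points with a library left out and 0.549 to 1.79 otherwise. The difference in GATA was −0.654 to 1.26 with a library left out, below 0 without ESC replicate 1 (−0.259), ESC replicate 2 (−0.266), CM replicate 1 (−0.442) or CM replicate 2 (−0.654). It was 0.438 to 7.30 otherwise, of which 3.47 was for peaks over 1 kb from a TSS and 7.30 for peaks of 40 to 50% GC, both chosen after seeing the data. The promoter difference was −0.08 to −0.02 with a library left out, 0.00 with −log10 q of at least 5 and 0.01 for genes with at least 1 CM-only region. Replicate numbers were not taken to pair the libraries, since the correlations of replicate differences were 0.129 to 0.192 among ESC, MES and CP but −0.119 to 0.000127 with CM. With a replicate block the exact permutation p was 0.125 for MEF2, the smallest it allows, 1.00 for GATA and 0.500 for the promoters, with differences of 0.800, 0.644 and −0.03. Lists of equal length, with 4771 CM-only regions in place of 3000, also raised the share of list genes with such a region. It rose from 42.9 to 71.4% in the thick filament list and from 21.7 to 47.8% among transcription factors. The share over all protein-coding genes, 8.36% in the main setting, was not computed for lists of equal length, so these rises cannot be set against it. A site below the listing threshold of a library cannot be told apart from a closed one.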
